A study of Mus musculus with 8 samples.

Results

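The genes described here are 34 listed genes of the lysosome and of the glycoprotein Gpnmb, which sits in lysosomes and melanosomes. They were chosen by gene symbol, and every probe set annotated to 1 of those symbols was taken on all 8 arrays. Of the 34, 33 were matched, to 71 of the 45101 probe sets on the array, and 31 of them passed the filter on low signals, with 62 probe sets, among 11643 tested genes in all. Cd63 had no probe set paired with its symbol in the annotation used, and Ctsf and Ctss did not pass the filter.

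Each array measured total RNA of 1 culture. The groups were NIH3T3 PGC7 (3 arrays: clone 1, clone 2 and an uncloned population), NIH3T3 control (1 array), B16F10 PGC7 (3 arrays: clones 1 to 3) and B16F10 control (1 array). NIH3T3 cells are fibroblasts derived from mouse embryos, and B16F10 cells come from a mouse melanoma. PGC7, also named Stella or Dppa3, is a maternal and germ cell protein, introduced here with a virus. The genotype labels call it PGC8 and call every such sample uncloned, whereas the titles separate clones from the uncloned NIH3T3 culture, and the titles were used. That NIH3T3 culture is titled pre cloning, so clones 1 and 2 may have been taken from it. If so, the 3 NIH3T3 PGC7 arrays are not independent. The labels do not state if control cells were exposed to a virus without PGC7, and a clone is a single lineage, so a feature of a clone and an effect of PGC7 cannot be told apart within it.

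Values below are MAS5 signals in arbitrary units, with every array scaled to a trimmed mean of 500. Changes are differences of log2(signal + 9) between the PGC7 arrays and the control, which understate the change of weak signals. A gene was read by its brightest tested probe set unless another is named, and was called at a limma adjusted p under 0.05 over all 25236 tested probe sets. Each control is a single array, so its spread was taken to be that of the PGC7 arrays. All 10 melanocyte markers were above the filter's signal of 49.3 in the 4 B16F10 arrays and at most 2 of them in any NIH3T3 array, while 8 or 9 of 10 fibroblast markers were above it in NIH3T3 and 3 or 4 in B16F10. Poly-A spikes, RNA added before labelling, lay 0.40 to 0.59 (log2, medians) above the control in the B16F10 PGC7 arrays and fell by 0.24 to 0.49 in the NIH3T3 PGC7 arrays, so all directions are relative to the average probe set of an array. The 3' minus 5' difference of the Gapdh control probe sets was -0.37 to -0.34 in NIH3T3 PGC7 arrays and -0.41 in their control, and -0.25 to -0.21 in B16F10 PGC7 arrays and -0.20 in their control. For Actb the NIH3T3 difference went the other way, with 0.21 to 0.26 in the PGC7 arrays and 0.35 in the control. In B16F10 Actb had 0.37 to 0.42 in the PGC7 arrays and 0.38 in the control.

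Lysosomes are acidic organelles in which cathepsins cut proteins, glycosidases and sulfatases take apart sugar chains, and lipases and ceramidases break down lipids. A proton pump, the vacuolar ATPase, keeps them acidic, and heavily glycosylated membrane proteins such as Lamp1 and Lamp2 line their wall. Many of these genes carry a short E-box in their promoter, CACGTG, that transcription factors of the family of Tfeb, Tfe3 and Mitf can bind, and in pigment cells the melanosome is a related organelle whose genes are under Mitf. Gpnmb is a single-pass membrane glycoprotein made in melanocytes, osteoclasts and macrophages, and is known as a Mitf and Tfe3 target.

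The promoters of 4 members are shown: Gpnmb, with the largest change in NIH3T3, Neu1, the call in B16F10, Ctsl, a called member that holds an E-box, and Lamp1, which held the most E-boxes. They are RefSeq sequences of build GRCm38.p6, the 250 bases before an annotated start, read 5' to 3' along the gene. The windows are chr6:49036268-49036517 (plus strand) for Gpnmb, chr13:64370521-64370770 (minus strand) for Ctsl, chr17:34931003-34931252 (plus strand) for Neu1 and chr8:13158911-13159160 (plus strand) for Lamp1. The Ctsl window lies inside the annotated span of its gene, chr13:64361890-64370772, whereas the Gpnmb, Neu1 and Lamp1 windows end directly before theirs. Capitals mark CACGTG, which reads the same on both strands, and CATGTG or its reverse complement CACATG, another E-box form, and the 2 motifs do not overlap in these windows.
Gpnmb: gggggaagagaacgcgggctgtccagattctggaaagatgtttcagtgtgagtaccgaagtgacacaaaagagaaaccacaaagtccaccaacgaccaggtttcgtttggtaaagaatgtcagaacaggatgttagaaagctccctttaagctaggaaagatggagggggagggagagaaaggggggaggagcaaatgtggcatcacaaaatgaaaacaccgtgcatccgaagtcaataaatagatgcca
Ctsl: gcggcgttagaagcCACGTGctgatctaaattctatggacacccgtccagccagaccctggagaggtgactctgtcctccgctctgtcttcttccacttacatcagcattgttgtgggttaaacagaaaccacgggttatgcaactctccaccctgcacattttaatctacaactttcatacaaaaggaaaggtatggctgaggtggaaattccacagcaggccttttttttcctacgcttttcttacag
Neu1: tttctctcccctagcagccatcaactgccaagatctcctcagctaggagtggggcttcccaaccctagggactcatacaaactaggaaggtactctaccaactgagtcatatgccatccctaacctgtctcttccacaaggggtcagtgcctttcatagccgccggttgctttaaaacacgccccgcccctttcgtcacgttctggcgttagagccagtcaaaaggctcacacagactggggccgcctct
Lamp1: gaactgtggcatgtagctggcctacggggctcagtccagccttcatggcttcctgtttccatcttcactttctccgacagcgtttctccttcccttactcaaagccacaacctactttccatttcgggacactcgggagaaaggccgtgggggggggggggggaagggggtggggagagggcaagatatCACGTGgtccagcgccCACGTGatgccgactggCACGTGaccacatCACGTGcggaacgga
Ctsb, Ctsh, Npc1, Galns, Asah1 and Atp6v1h were not matched in that table. Of the 28 members that were, 8 held CACGTG, namely Ctsa, Ctsd, Ctsf, Ctsl, Gaa, Glb1, Lamp1 and Mcoln1. By window this was 8 of 30, or 26.7%, against 6.02% of all 32851 promoter windows of that length. Of these 8 genes only Ctsl was called between PGC7 arrays and control, in NIH3T3, and Ctsf did not pass the filter. A link between the motif and the changes was not tested. Lamp1 had 4 copies, starting at -61, -45, -28 and -15 from the start. Ctsl had 1, at -236 from the start used for its window, which places it inside the annotated span of the gene. CATGTG was in 2 of the 30 windows, those of Grn and Scarb2 (6.67%), against 12.3% of all windows. Neither motif was in the Gpnmb or Neu1 window, which says only that these letters are not there.

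In NIH3T3, a set of lysosomal genes led by Gpnmb and the protease gene Ctsb was higher in the PGC7 cultures. Of the 31 tested members, 8 rose and 1 fell: Gpnmb, Ctsb, Galns, Npc1, Atp6v1h, Ctsl, Grn and Psap rose, and Lipa fell. Over all tested genes 15.2% were called in this comparison, 7.87% higher and 7.35% lower. The split was 8 higher and 0 lower with the signals as deposited, where 10.3% of all tested genes were called, and 10 and 0 when scaled on the poly-A spikes, where 13.2% were. The median change was 0.36 over the 31 members and -0.04 over all tested genes. In these bulk cultures more cells expressing a gene and more RNA per cell cannot be told apart.

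Gpnmb (1448303_at) had a signal of 656 in NIH3T3 clone 1, 1575 in clone 2 and 708 in the uncloned culture, against 22.9 in the NIH3T3 control. All 3 PGC7 arrays were far above a control that lay under the filter's signal. The log2 change was 4.83 ± 0.41 (± SE, adjusted p = 0.000328), with a mean signal of 979.5 ± 516.4 in the PGC7 arrays (SD, n = 3). No ratio is given because the control signal is weak. It was called in 14 of 14 alternatives that tested this gene anew, with changes of 3.71 to 5.24. The weaker probe set 1439345_at had 38.4, 70.3 and 19.9 in clone 1, clone 2 and the uncloned culture and 20.6 in the control. There only the clones exceeded the control, and the change of 0.69 was not called (adjusted p = 0.365).

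Markers of other cells that make Gpnmb were measured beside it. The summed signal of 15 macrophage and osteoclast markers was 1247, 1288 and 1073 in the NIH3T3 PGC7 arrays and 624 in the control, with 5 of 15 above the filter's signal in each PGC7 array and 4 in the control. The markers went both ways: Lyz2, coding for lysozyme, had 31.7 to 38.6 in the PGC7 arrays and 114 in the control, Cd68 70.1 to 150 in the PGC7 arrays and 48.0 in the control, and Mrc1, the mannose receptor gene, 46.6 to 120 in the PGC7 arrays and 7.25 in the control. Cd14, a receptor for bacterial lipopolysaccharide that fibroblasts can also express, rose to 471 to 578 in the PGC7 arrays, against 131 in the control (log2 1.92, adjusted p = 0.0128). Ptprc, the pan-leukocyte CD45 gene, had 231, 175 and 74.8 in the PGC7 arrays and 60.6 in the control and was not called, and Csf1r, the receptor of the macrophage growth factor, had 164, 155 and 120 in the PGC7 arrays and 163 in the control. The osteoclast fusion genes Dcstamp and Ocstamp had signals of 2.64 to 7.94 in the PGC7 arrays and of 2.28 and 3.72 in the control. The 10 melanocyte markers summed to 163 to 314 in the PGC7 arrays and to 384 in the control. The 10 fibroblast markers summed to 79340 to 88040 in the PGC7 arrays and to 121500 in the control. They went both ways, with 2 group changes above 0 and 7 below among the 9 tested. The matrix genes Col1a1 and Postn were lower by log2 changes of -5.50 each (adjusted p = 0.000271 for Col1a1), the control signal of Col1a1 being 23290. Dcn had 16480 to 20070 in the PGC7 arrays and 13830 in the control, and Col3a1 27100 to 31940 in the PGC7 arrays and 27080 in the control. The part of these cell types, or of a change among the fibroblasts, in the NIH3T3 results was not tested.

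**Figure D1:**
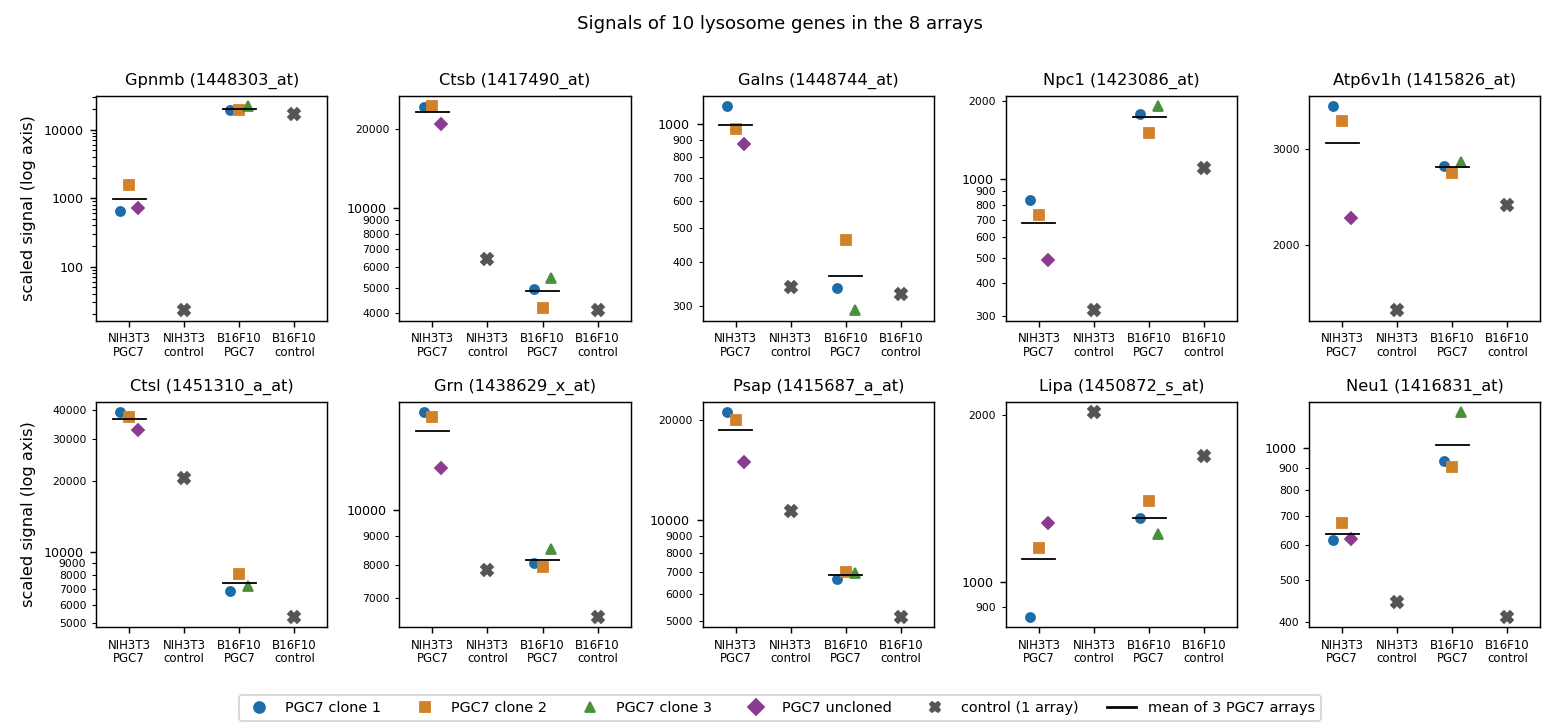
Signal of 10 lysosome genes (log axis, arbitrary units, brightest tested probe set) in the 4 groups, with 1 symbol for each array and a line at the mean of the 3 PGC7 arrays. In NIH3T3 the PGC7 arrays of Gpnmb lie between 656 and 1575 and the control at 22.9, and in B16F10 all 4 arrays lie between 17270 and 22400.

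The cathepsins, proteases of the lysosome's interior, did not move as one. Ctsb, a cysteine protease gene with both endo- and exopeptidase activity, had 24230, 24470 and 20970 in clone 1, clone 2 and the uncloned NIH3T3 culture, against 6427 in the control. The 3 PGC7 arrays were close to each other and all above the control, a log2 change of 1.85 ± 0.16 (adjusted p = 0.000348) and a ratio of 3.61. Of its 4 other tested probe sets, 3 also rose, by 2.23 (1448732_at), 3.35 (1417492_at) and 2.94 (1417491_at), and the dimmest, 1444987_at, had 0.52 (adjusted p = 0.669). Ctsl, the broad-acting endopeptidase gene, had 39020, 37300 and 32810 in the PGC7 arrays and 20600 in the control (0.82 ± 0.13, adjusted p = 0.00601). It was above its control in all 3 arrays, by less than Ctsb on the log2 scale.

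Other cathepsins were not called in NIH3T3. Ctsa, whose product shields neuraminidase and beta-galactosidase, had 0.30 (adjusted p = 0.16) and Ctsz, a carboxypeptidase gene, 0.38 (adjusted p = 0.0561). The aspartic protease gene Ctsd had -0.18 (adjusted p = 0.394). Ctsk, the collagen-cutting cathepsin of osteoclasts, had 695, 385 and 106 in clone 1, clone 2 and the uncloned culture, with the control at 396 between them. Ctso had 553 and 645 in the clones, 1254 in the uncloned culture and 1147 in the control, so the uncloned culture resembled the control more than the clones in that gene. At their brightest probe sets Ctsc, which activates serine proteases of leukocytes, and Ctsh were at most 45.7 and 33.3 in any NIH3T3 array, under the filter's signal. Ctss and Ctsf stayed at or under 37.1 at all of their probe sets in all 8 arrays.

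**Figure D2:**
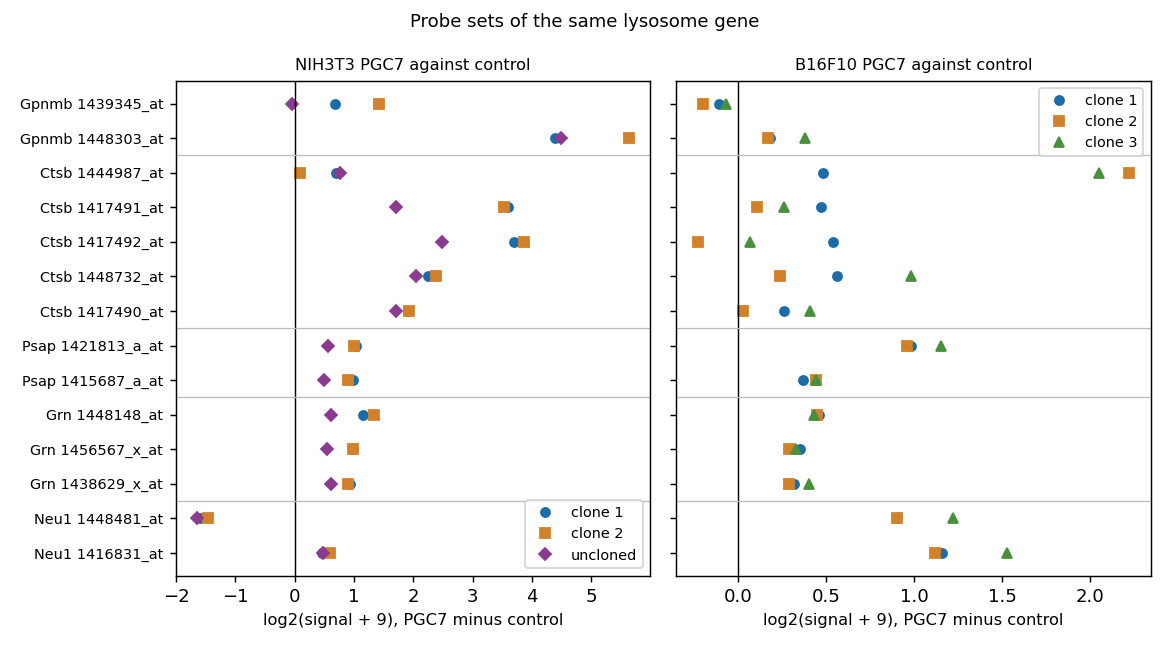
Change from the control, on the log2(signal + 9) scale, at every tested probe set of Gpnmb, Ctsb, Psap, Grn and Neu1, with 1 symbol for each PGC7 array. The Gpnmb probe sets differ in size, 4.83 and 0.69 in the NIH3T3 fit, and the Neu1 probe sets point in opposite directions in NIH3T3.

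Among genes of sugar breakdown and lipid handling, Galns rose, Npc1 rose and Lipa fell. Galns, the sulfatase gene of keratan and chondroitin sulfate, had 1126, 968 and 872 in clone 1, clone 2 and the uncloned culture and 339 in the control (1.51 ± 0.27, adjusted p = 0.00898). The PGC7 arrays were 2.92 times the control on average and did not overlap it. Npc1, the membrane cholesterol transporter gene, had 830, 728 and 492 in the PGC7 arrays and 315 in the control (1.06 ± 0.27, adjusted p = 0.038). Its call was lost in 8 of 14 alternatives, with adjusted p-values up to 0.151. Lipa, the acid lipase gene that frees cholesterol from its esters, had 865, 1153 and 1280 in the PGC7 arrays and 2026 in the control (-0.90 ± 0.21, adjusted p = 0.0274). All 3 were below the control, and the call was lost in 7 of 14 alternatives, among them the poly-A spike scaling (-0.60, adjusted p = 0.181).

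The other glycosidases and lipid enzymes of the list were uncalled in NIH3T3 at their brightest probe sets. Hexa, a beta-hexosaminidase subunit gene, had 7636 and 7747 in clones 1 and 2, 5053 in the uncloned culture and 4831 in the control, with the uncloned culture close to the control. Changes of the remaining ones ran from -0.26 for the beta-glucuronidase gene Gusb to 0.51 for the neuraminidase gene Neu1, with the glucosidase gene Gaa at 0.13, the beta-galactosidase gene Glb1 at 0.36, the mannosidase gene Man2b1 at 0.39 and the acid ceramidase gene Asah1 at -0.05. Npc2, the soluble partner of Npc1, had 0.08 (adjusted p = 0.8). A dim Neu1 probe set, 1448481_at, was called lower, at 7.25, 8.84 and 6.74 in the PGC7 arrays and 40.2 in the control (-1.57, adjusted p = 0.0447). Both of its groups lay under the filter's signal in NIH3T3.

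Of the activators and pump subunits, Psap, Grn and Atp6v1h rose. Psap, coding for the precursor of the saposins that help break down sphingolipids, had 21170, 20010 and 15020 in clone 1, clone 2 and the uncloned culture and 10710 in the control (0.79 ± 0.17, adjusted p = 0.0217). Grn, the progranulin gene, had 14930, 14640 and 11910 in the PGC7 arrays and 7825 in the control (0.81 ± 0.14, adjusted p = 0.00743), and all 3 of its probe sets were called. Both genes were lowest, among PGC7 arrays, in the uncloned culture and still above the control there. Atp6v1h, a subunit of the pump's catalytic sector, had 3604, 3374 and 2243 in the PGC7 arrays and 1514 in the control (0.99 ± 0.23, adjusted p = 0.0278). Its call was lost in 7 of 14 alternatives. The dimmer probe set 1457639_at had -0.53 (adjusted p = 0.642), and the median over both probe sets was 0.23. Atp6v0d1, a subunit of the membrane sector, was higher than its control of 3919 only in clones 1 and 2, at 4113 and 4388, and had 2430 in the uncloned culture (-0.15, adjusted p = 0.774).

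None of the 4 membrane proteins below passed the test in NIH3T3. Lamp1 had 11290, 11280 and 9241 in the NIH3T3 PGC7 arrays and 9459 in the control, groups that overlap, and Lamp2 had -0.29 (adjusted p = 0.193). Scarb2, the receptor that carries glucocerebrosidase, had 0.25 and the calcium channel gene Mcoln1 0.47, both uncalled. Sqstm1, the autophagy receptor p62, had 15200, 15130 and 10440 in the PGC7 arrays and 8319 in the control, a change of 0.69 just outside the threshold (adjusted p = 0.0567). Tpp1, a tripeptidyl peptidase gene, had 0.36 (adjusted p = 0.0533).

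In all, 18 of the 31 members had all 3 NIH3T3 PGC7 arrays above the control, where 31.2% of all tested genes did, and 6 had all 3 below, where 36.5% did. Of those 6, Ctsc and Ctsh lay under the filter's signal in every NIH3T3 array and were tested only because of their signal in B16F10. Gpnmb, Ctsb and Galns, 3 members, were at least 2-fold higher in all 3 arrays, where 4.01% of all tested genes were, and 0 members were 2-fold lower in all 3, where 4.01% were. The count of calls changed without the uncloned culture: 15 members rose and 1 fell, with 27.9% of all tested genes called, 13.3% higher. Hexa, Sqstm1, Mcoln1, Ctsa, Ctsz, Tpp1 and Man2b1 were added. With the 4 NIH3T3 arrays alone 4 rose, Gpnmb, Ctsb, Ctsl and Galns, with 5.48% of all tested genes called, 3.39% higher.

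**Figure D3:**
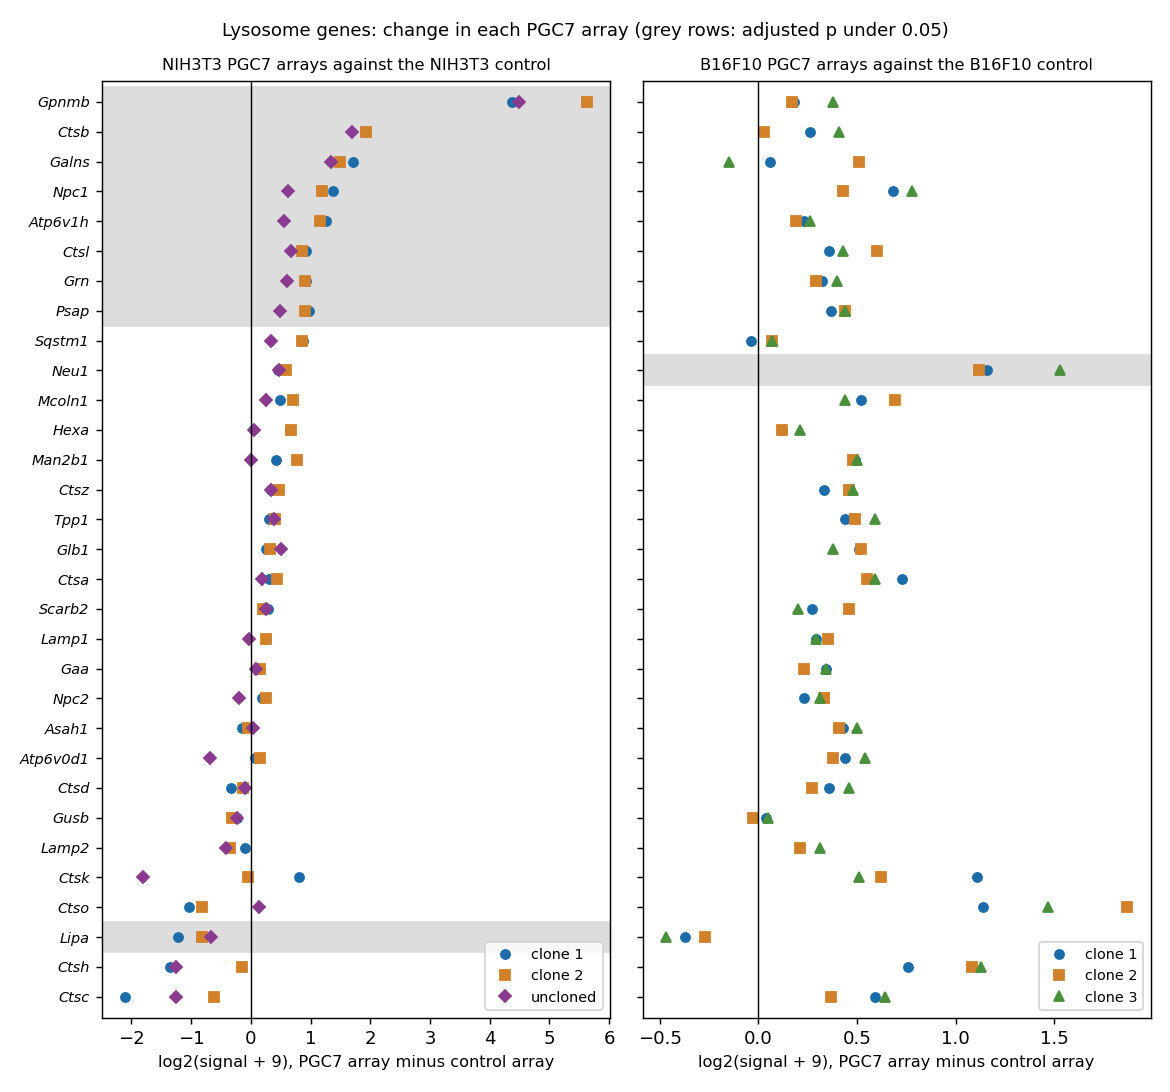
Change of log2(signal + 9) from the line's control for the 31 tested members, in each PGC7 array, ordered by the NIH3T3 change; the panels have different scales, and grey rows passed an adjusted p of 0.05. In NIH3T3 values spread from -1.32 for Ctsc to 4.83 for Gpnmb as group changes, while in B16F10 all 3 points lie above 0 for 27 of the 31 members.

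In B16F10 most members had small values above 0 in the PGC7 clones, and 1 passed the test. The group change was above 0 for 30 of 31 members, a larger share than the 6408 of all 11643 tested genes. Of the members, 27 had all 3 clones above the control, where 41.3% of all tested genes did. Of those 27, Ctsk lay under the filter's signal in every B16F10 array. Lipa, 1 member, had all 3 below, where 31.9% of all tested genes did. Neu1 and Ctso, 2 members, were at least 2-fold higher in all 3 clones, where 2.60% of all tested genes were, and 0 members were 2-fold lower, where 0.404% were. The median change was 0.42, against 0.05 over all tested genes. Neu1 was called higher and no member lower, where 1.18% and 0.386% of all tested genes were. These directions hold only relative to the average probe set: scaled on the poly-A spikes, 8 members were above 0 and 23 below, with a median of -0.10 where all tested probe sets had -0.47.

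Neu1, coding for the lysosomal sialidase, had 934, 902 and 1207 in B16F10 clones 1, 2 and 3, against 412 in the control. All 3 clones were above the control, and their mean was 2.465 times it (1.27 ± 0.20, adjusted p = 0.0248). The second probe set, 1448481_at, had 81.0, 81.2 and 104 in the clones and 39.3 in the control, the same direction without a call (1.01, adjusted p = 0.311). The call was lost in 9 of 14 alternatives, with adjusted p-values up to 0.0944, and the direction in none. At its less bright probe set 1421813_a_at, Psap was called too, with 1415, 1400 and 1595 in the clones and 715 in the control (1.03, adjusted p = 0.0453), while its brightest had 0.42 (adjusted p = 0.306).

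Gpnmb had 19510, 19390 and 22400 in the clones and 17270 in the control. The change of 0.24 ± 0.41 was not called (adjusted p = 0.84). It turned to -0.28 under the spike scaling, and the probe set 1439345_at had -0.13. Ctso had 164, 279 and 209 in the clones and 69.6 in the control, the largest change of the list (1.50, adjusted p = 0.159). At the brightest probe sets Lipa was the only member with a group change below 0. It had 1304, 1399 and 1219 in the clones and 1690 in the control (-0.37, adjusted p = 0.46), as it was below the control in NIH3T3. By the median over each gene's probe sets, 27 members were above 0 and 4 below.

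The B16F10 count rested on the spread shared with NIH3T3. With the 4 B16F10 arrays alone 13 members rose and 0 fell, where 11.6% of all tested genes were called, 7.26% higher. They were Ctsa, Ctsc, Ctsl, Ctso, Ctsz, Glb1, Neu1, Npc1, Tpp1, Psap, Asah1, Man2b1 and Atp6v0d1, with changes of 0.42 to 1.50. When the uncloned NIH3T3 culture was left out of the joint model 13 rose, with 9.32% of all tested genes called, 5.93% higher.

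The changes in the lines differed for Gpnmb and Ctsb, both of which rose in NIH3T3 and were not called in B16F10. The B16F10 change minus the NIH3T3 change was -4.60 ± 0.58 for Gpnmb (adjusted p = 0.00437) and -1.61 ± 0.22 for Ctsb (adjusted p = 0.00627), so 0 members were called higher and 2 lower, where 8.93% of all tested genes were called, 4.89% higher and 4.05% lower. Galns had -1.37 (adjusted p = 0.0689), and a difference between the lines did not pass the test. Neu1 had 0.76 at its brightest probe set (adjusted p = 0.148) and 2.57 at the dim probe set 1448481_at (adjusted p = 0.0397), which lay under the filter's signal in NIH3T3. At their brightest probe sets the other 29 members were uncalled, with differences of -1.37 to 2.07, the highest for Ctso (adjusted p = 0.0881).

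The levels of the members in the lines were compared over 4 arrays each. Of the 31 tested members 9 were higher in B16F10 than in NIH3T3 and 16 lower, where 72.8% of all tested genes were called, 35.0% higher and 37.8% lower. Ctsc, Ctsh and Ctsk were under the filter's signal in all arrays of 1 line and were tested only through the other, so they had to differ, and their values are given without a test. Of the other 28 members 7 were higher and 15 lower. Among the 9986 genes that reached that signal in both lines 69.6% were called, 36.4% higher and 33.2% lower. Any array batch cannot be told apart from the line here. The split of the 28 depended on scaling: 8 higher and 14 lower with quantile normalization, 10 and 7 on the spikes, and 25 and 2 with the deposited signals, whose scale differs between the lines.

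Gpnmb had the largest tested difference between the lines. It was 17270 to 22400 in B16F10 and 22.9 to 1575 in NIH3T3 (log2 difference 6.78 ± 0.29, adjusted p = 2.48e-07). The ranges did not overlap, and the direction did not turn under the 3 other scalings. Npc1 (1.57) and Gusb (1.40) were also higher in B16F10, but the other Gusb probe set, 1430332_a_at, had -0.10 and was uncalled (adjusted p = 0.54). Ctsc was 2249 to 3502 in B16F10 and 3.78 to 45.7 in NIH3T3, and Ctsh 89.7 to 207 in B16F10 and 7.51 to 33.3 in NIH3T3.

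Several cysteine cathepsins ran the other way. Ctso had 69.6 to 279 in B16F10 and 553 to 1254 in NIH3T3 (-2.84, adjusted p = 5.57e-05), and Ctsl 5332 to 8076 in B16F10 and 20600 to 39020 in NIH3T3 (-2.12). The much weaker Ctsl probe set 1457724_at had 1.71, uncalled (adjusted p = 0.1). Ctsk was 17.5 to 48.2 in B16F10 and 106 to 695 in NIH3T3. At its brightest probe set Ctsb was lower in B16F10 by less (-1.45) and Psap too (-1.25), and these turned to 0.10 and 0.31 with the deposited signals. Other probe sets of both genes differed more: Psap had -3.51 at 1421813_a_at, and Ctsb -3.12 at 1448732_at and -2.64 to -1.49 at its remaining ones. At their brightest probe sets Lamp1 (-0.01), Lamp2 (-0.03) and Lipa (0.00) differed between the lines by less than their SE of 0.09 to 0.15. With the deposited signals they differed by 1.52 to 1.55. Other probe sets of Lamp2 and Lipa did differ. Lamp2 had -1.12 at 1416343_a_at (adjusted p = 0.00375), and -0.29 and -0.44, uncalled, at its remaining ones. Lipa had 1.54 at 1423140_at (adjusted p = 0.000325) and -0.42, uncalled, at 1423141_at.

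**Figure D4:**
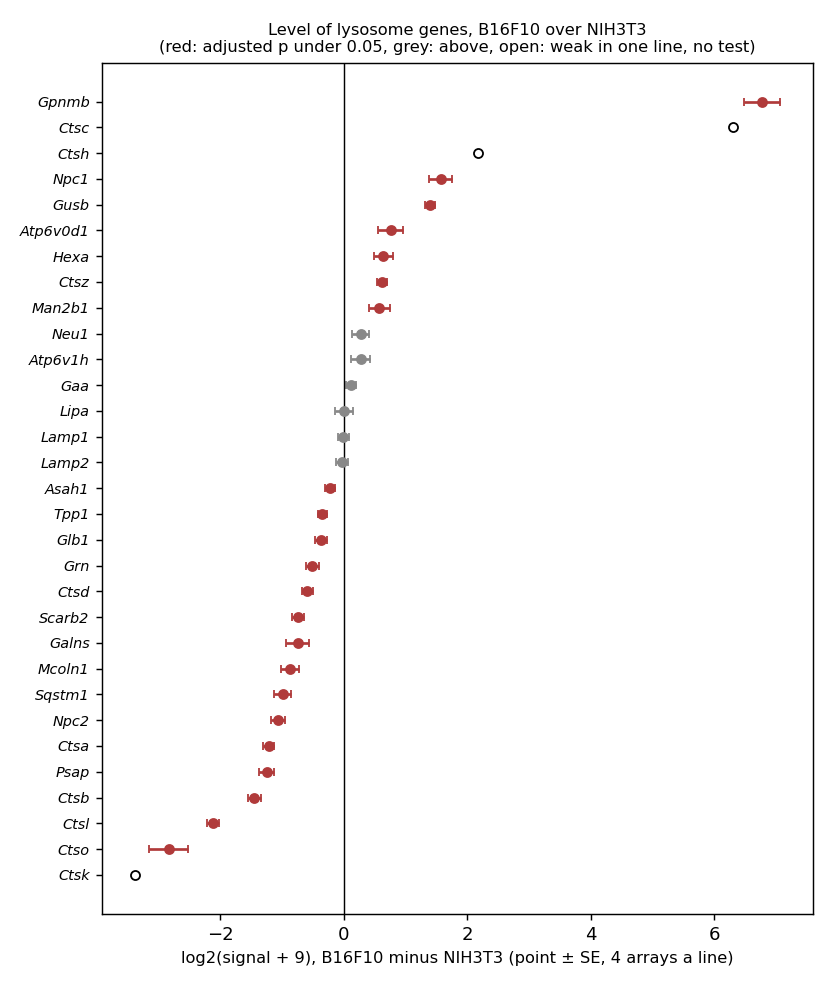
Difference in log2(signal + 9) between the B16F10 and NIH3T3 arrays (mean of the group means, ± SE) for the 31 tested members, with red points at an adjusted p under 0.05, grey points above it, and open points for the 3 members that were weak in 1 line and have no test. Gpnmb at 6.78 is highest and, among the tested differences, Ctso at -2.84 is lowest.

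Other genes of the pathway were read from 7 further lists, with 157 genes tested that are not members. In NIH3T3 18 rose and 4 fell, a share near the 15.2% of all tested genes called, 7.87% higher and 7.35% lower. The split was 9 and 5 as deposited, where 10.3% of all tested genes were called, and 23 and 0 on the spikes, where 13.2% were. The median change of the 157 was 0.10. Membrane proteins had 6 of 27 rising and 0 falling: Cln3, the gene mutated in juvenile Batten disease, rose to 135, 120 and 119 in the PGC7 arrays, against 39.2 in the control (1.46). Laptm4b (1.17), the sialomucin gene Cd164 (1.02) and Litaf (0.71) rose as well. Hydrolases had 3 of 30 rising and 1 falling, led by Naglu, which removes N-acetylglucosamine from heparan sulfate (1514, 1752 and 1764 in the PGC7 arrays, 586 in the control, 1.50). Ppt2 (1.06) and Scpep1 (0.84) rose and Man2b2 fell (-1.23).

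Pump subunits had 3 of 16 rising, Atp6v1b2 (1.02), Atp6v1c1 (0.94) and Atp6v0b (0.91), and 0 falling, where 7.87% of all tested genes were called higher and 7.35% lower. Sorting genes had 2 of 29 rising, Hps1 (0.76) and Hgs (0.69), and Rab32 fell (-0.90). Of 28 autophagy genes Nbr1 (0.87) and Gabarapl2 (0.86) rose. The shares rising among the sorting and autophagy genes were near that of all tested genes. Of 5 inhibitor genes Serpinb6a rose (0.62), and Slpi (-1.05) and the cathepsin inhibitor gene Cst3 (-0.67), which codes for cystatin C, fell. Of 22 genes for transcription factors and the docking of the growth kinase mTORC1 only Rptor rose (0.95). The transcription factor genes themselves were uncalled in both lines: Tfeb had -1.20 in NIH3T3 (adjusted p = 0.268) and 0.33 in B16F10, Tfe3 -0.24 and -0.05, and Mitf -0.11 and 0.29. Mitf had 14090 to 14970 in the B16F10 clones and 11820 in their control, and 509 to 548 in NIH3T3 PGC7 arrays and 576 in their control, while Tfec did not pass the filter.

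In B16F10, 2 of the 157 rose and 0 fell, where 1.56% of all tested genes were called. Both are hydrolases of sphingolipid breakdown. Smpd1, the acid sphingomyelinase gene, had 3289, 2738 and 3809 in clones 1, 2 and 3 and 1198 in the control (1.43, adjusted p = 0.0194), and Arsa, the arylsulfatase A gene, had 1480, 1625 and 1755 in the clones and 876 in the control (0.88, adjusted p = 0.0256). All clones of both were above the control, and in NIH3T3 both were uncalled at -0.47 and -0.28. The differences between the lines were called for both (1.90 and 1.16, adjusted p = 0.00883 and 0.0129). Of the 157, 104 had all 3 B16F10 clones above the control, where 41.3% of all tested genes did. A group change above 0 was found for 125 of them, a larger share than the 6408 of all 11643 tested genes. On the poly-A spikes 24 of the 157 were above 0.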

How the data were processed

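Signals of mouse 3' expression arrays were taken as deposited by the authors, 1 intensity per probe set on a linear scale, made with MAS5 per the submitters' processing notes; its settings are not stated there. Each array was multiplied to a trimmed mean of 500 (2% off each end), by 1.00 for B16F10 and by 2.65 to 3.49 for NIH3T3, whose deposited means were 143.45 to 188.67. Signals were taken as log2(signal + 9). Of 45101 probe sets, 64 controls were set aside and 19801 were removed because their mean was under the median signal, 49.3, in both lines. Symbols came from the platform's annotation, updated through gene identifiers to GRCm38.p6 (34754 of 34958 probe sets with 1 symbol). The 8 arrays were fitted together, with a mean for each of 4 groups, in limma 3.58.1 (R 4.3.3) with an intensity trend, two-sided, with Benjamini-Hochberg adjustment (8.50 degrees of freedom). It was tested on simulated data. The simulated controls were given the spread of the PGC7 arrays, so the simulation could not test the controls' own spread. The number of arrays limits precision, and the p-values reflect spread between cultures only, which may be related in NIH3T3. Members, lists and tests were chosen with earlier results of these data known. Named were Gpnmb, every member called in a line or between the lines, the 10 members with the largest called difference between lines, the 4 largest called changes per pathway list and line, and 4 transcription factor genes. Alternatives were 3 other scalings, pseudocounts of 1 and 50, no filter, no trend, single lines, all probe sets of a gene and each PGC7 array left out.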

Additional observations from a re-analysis of the deposited data

Results flagged for a closer look

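The change of Gpnmb differed between the lines in the test of the difference itself, the B16F10 change minus the NIH3T3 change being -4.60 (adjusted p = 0.00437), and it was called in 13 of 13 alternatives that tested it anew, at -5.32 to -3.47. The median over its 2 probe sets was -2.71, and the dimmer one was not called (-0.82, adjusted p = 0.506). Ctsb also differed between the lines, by -1.61 (adjusted p = 0.00627), and was called in 13 of 13 alternatives, at -2.43 to -1.36. In B16F10 the Gpnmb signal was high in every array, at 17270 to 22400, against 22.9 to 1575 in NIH3T3.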

How the results depend on the processing

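With 1 control array a line, the controls' own spread is not measured, and 3 PGC7 cultures a line limit precision; signals under 49.3 are weak. The NIH3T3 calls of Gpnmb, Ctsb, Ctsl and Galns held in 14 of 14 alternatives. The median over probe sets is left out of these counts, because there any probe set that passed in the median's direction makes the call. Of 31 members, 9 were called in NIH3T3, and 4 without the intensity trend (8.98% of all genes called) and 4 with the NIH3T3 arrays alone (5.48%). Leaving out 1 PGC7 array gave 6 to 16 (9.7% to 27.9% of all genes called), with 16 without the uncloned NIH3T3 culture. In B16F10 1 member was called, and 0 as deposited (1.02% of all genes called), 0 on the poly-A spikes (8.45%), 0 without the trend (0.326%), 2 when any probe set of a gene could make the call and 13 with the B16F10 arrays alone (11.6%). Leaving out 1 array gave 0 to 13 (0.276% to 9.32% of all genes called), with 13 without the uncloned NIH3T3 culture. The 1 call under quantile normalization was not Neu1. For the difference of the changes 2 were called, and 8 on the spikes (24.5% of all genes called) and 2 to 11 with 1 array left out, 11 without the uncloned NIH3T3 culture (21.6%). Between the lines 20 (69.5% of all genes called) to 30 (87.4%) were called, against 25 (72.8%). Of the 28 members that reached 49.3 in both lines, a choice made after seeing the data, 22 were called (69.6%). Of 157 other pathway genes 22 were called in NIH3T3 (15.2% of all genes called). The count was 14 as deposited (10.3%), 11 without the trend (8.98%), 6 with the NIH3T3 arrays alone (5.48%) and 15 to 58 with 1 array left out (9.7% to 27.9%). In B16F10 2 of them were called (1.56% of all genes called). The count was 1 as deposited (1.02%), 0 without the trend (0.326%), 27 with the B16F10 arrays alone (11.6%) and 0 to 21 with 1 array left out (0.276% to 9.32%). The Gpnmb change in B16F10 turned to -0.28 on the spikes (adjusted p = 0.652). The cause was not tested. No paired analysis was possible because each control is 1 array, so the groups compared share fewer than 2 replicate numbers.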
